A study of Drosophila melanogaster with 24 samples.

Results

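Respiratory complexes II to V were represented by 41 genes, out of 11982 genes with a probe set of their own among the 18769 probe sets tested. The genes were taken by name. Each had a probe set annotated with 1 gene symbol that begins with Sdh, UQCR, COX or ATPsyn, and where a gene had several such probe sets the one with the highest mean stood for it. Complex II had 7 genes, complex III 6, complex IV 14 and complex V 14. Of the 41 genes, 24 carry the plain name of a subunit, 16 are paralogs whose names end in L or L2 (for "like"), and 1, *Sdhaf3*, is an assembly factor. The large subunits *SdhA*, *UQCR-C1* and *UQCR-C2* and the subunit *COX6B* were not analysed here.

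RNA came from pools of 20 whole male *Drosophila melanogaster* per array, from a laboratory stock collected in the field in Denmark, with no further genotype or allele given. Flies developed from egg to adults of 6 days in 1 of 4 regimes, each held in 1 cabinet: 25 °C fluctuating (22 to 30 °C each day), 25 °C constant, 15 °C fluctuating (12 to 20 °C each day) or 15 °C constant. All spent 18 h at 20 °C and were then either ramped to 35 °C at 0.1 °C per min and frozen, or held at 20 °C and frozen at the same time. The 8 groups had 3 Affymetrix arrays each, and 1 array (15 °C fluctuating, 35 °C, replicate 3) was left out, which gave 12 arrays at 25 °C against 11 at 15 °C. As each regime was 1 cabinet, a cabinet effect and a regime effect cannot be told apart, and the replicates are pools of flies from the same cabinet.

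Complexes II, III and IV pass electrons from succinate and reduced quinone to oxygen in the inner mitochondrial membrane. Complexes III and IV pump protons as they do so, and complex V, the ATP synthase, makes ATP with the resulting gradient. The catalytic core of complex IV, cytochrome b of complex III and part of the membrane sector of complex V are encoded in mitochondrial DNA, and the other subunits, including all those measured here, in the nucleus. Flight muscle is the tissue of the fly richest in mitochondria, and many of the paralogs of nuclear respiratory genes in *Drosophila* are known for expression in the testis.

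Values are log2 expression levels, so a difference of 1 is a doubling. The mean of a gene over the 23 arrays lay between 5.83 (*UQCR-11*) and 13.2 (*ATPsynF*), and 0 of the 41 genes averaged under 4. Levels of different probe sets are not comparable and were not ranked. The array left out correlated at 0.208 to 0.216 with the others, against 0.969 to 0.998 among these, and the median of the 41 genes on it was 7.12, against 11.98 and 12.17 on the other arrays of its group. Male markers were high on all 23 arrays (*Mst87F*, a sperm protein gene, from 13.3 to 13.9; *Acp26Aa*, of the accessory gland, from 11.2 to 12.9). Genes of the egg shell and yolk, which mark female material, were high on 1 array only, replicate 1 of 15 °C constant, 20 °C, where the yolk protein gene *Yp1* stood at 12.9 and reached at most 5.42 elsewhere. Calls lost without that array in the averages and the interaction are named below.

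Mean temperature separated the genes of all 4 complexes. Averaged over the 4 contrasts of 25 °C with 15 °C (fluctuating or constant, at 35 °C or 20 °C), 40 of the 41 genes were lower at 25 °C and 1, *COX7A*, was higher, each past an adjusted p of 0.05 in limma. Over all probe sets tested, 56% passed in that average, 27.1% lower at 25 °C and 28.9% higher. The median change was −0.48 on the log2 scale over the 41 genes, or 0.717 of the level at 15 °C, against 0.00 over all probe sets. On 31 genes every array at 25 °C lay below every array at 15 °C, which held for 8.69% of all probe sets (4.46% had every array above). In bulk RNA of whole flies, fewer cells of a type and less RNA per cell cannot be told apart.

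**Figure D1:**
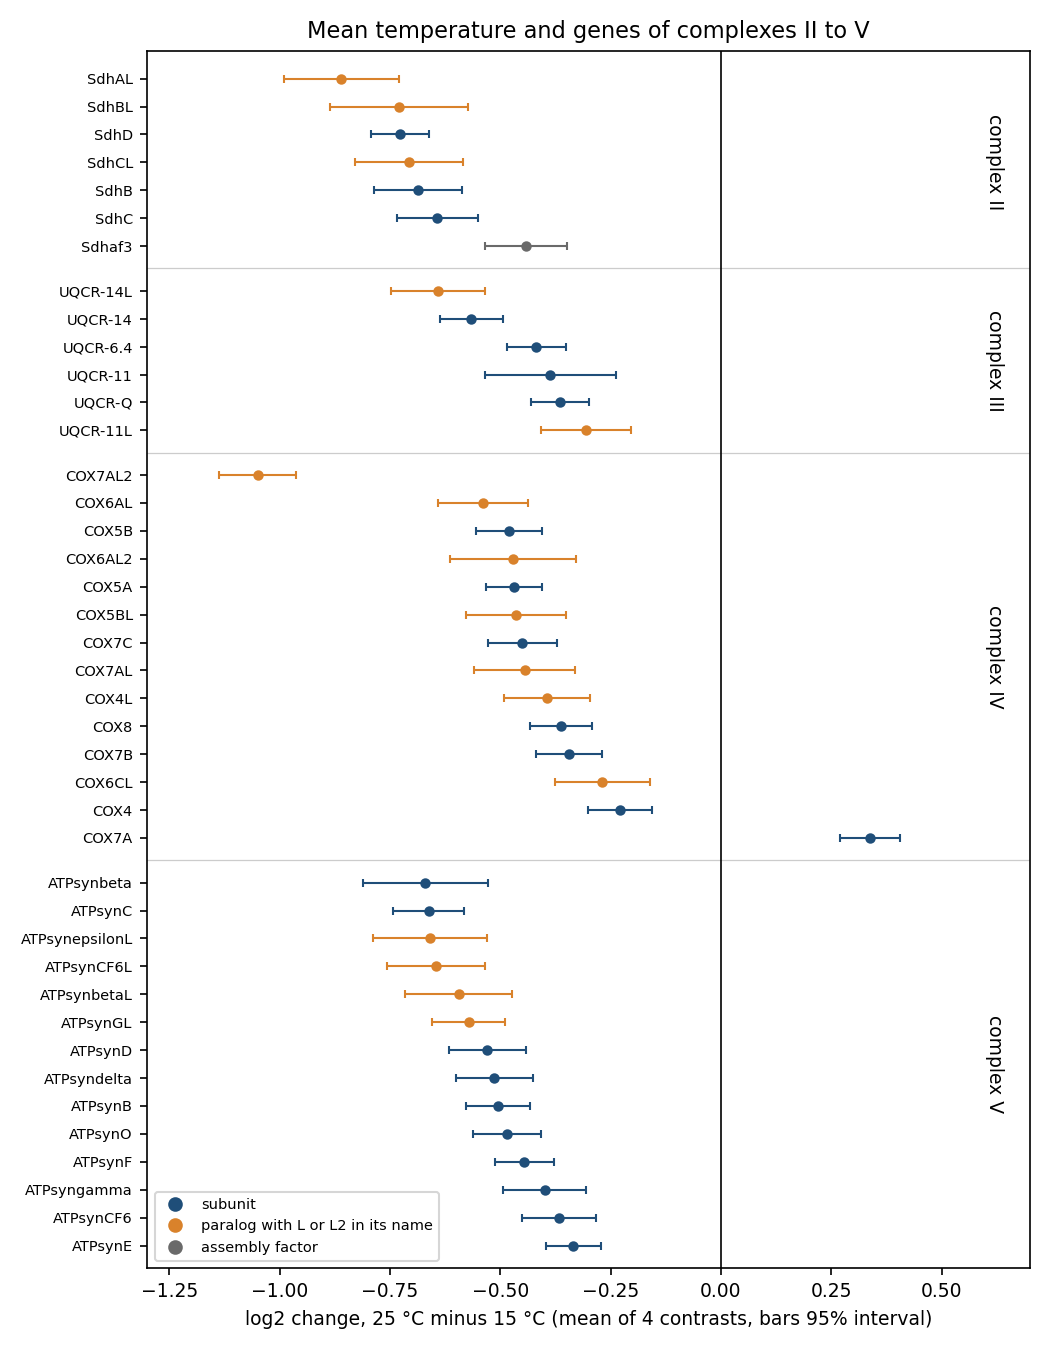
Log2 change of each of the 41 genes, 25 °C minus 15 °C, averaged over 4 contrasts and grouped by complex; points are limma estimates, bars their 95% intervals, and colours mark subunits, paralogs and the assembly factor. All points but *COX7A* (0.34) lie left of 0, and *COX7AL2* lies farthest left (−1.05).

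The single contrasts gave the same picture. Lower at 25 °C were 36 genes in fluctuating flies at 35 °C, 37 in fluctuating flies at 20 °C, 40 in constant flies at 35 °C and 39 in constant flies at 20 °C, with *COX7A* higher in each. Over all probe sets, 19.4% were lower in fluctuating flies at 35 °C (13.7% higher, 33.1% in all), 17.7% in fluctuating flies at 20 °C (17.6% higher, 35.3% in all), 21.8% in constant flies at 35 °C (21.9% higher, 43.6% in all) and 21% in constant flies at 20 °C (22% higher, 43% in all). Of the 41 genes, 36 passed the test in all 4 contrasts, which 21.8% of all probe sets did. The exceptions were *COX6CL* with 1 contrast, *UQCR-11* with 2, and *ATPsynbeta*, *COX6AL2* and *UQCR-11L* with 3. Without 1 array at a time, all 41 genes still passed in the average.

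Complex II, which oxidises succinate in the citric acid cycle, had the largest median change of the 4 complexes, −0.71 over 7 genes, or 0.613 of the level at 15 °C. *SdhD*, a membrane anchor subunit, measured 11.24 to 11.38 on the 25 °C arrays, with a median of 11.30, against 11.81 to 12.22 with a median of 12.07 on the 15 °C arrays. The narrow range at 25 °C lay wholly below the range at 15 °C, and the change was −0.73 ± 0.032 (SE; adjusted p = 3.36e-13). *SdhAL*, a paralog of the flavoprotein subunit, ran from 7.87 to 8.82 with a median of 8.32 at 25 °C, against 8.90 to 9.39 with a median of 9.21 at 15 °C. Its change of −0.86 ± 0.063 (adjusted p = 3.05e-10) was the lowest of the complex, and again no array overlapped.

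The iron-sulfur subunit gene *SdhB* measured 10.68 to 11.09 at 25 °C (median 10.92), against 11.24 to 11.91 at 15 °C (median 11.60). Its paralog *SdhBL* measured 9.07 to 10.19 at 25 °C (median 9.69), against 10.26 to 10.57 at 15 °C (median 10.50). Both were lower without overlap, by nearly the same amount (−0.69 ± 0.048 and −0.73 ± 0.075). The second anchor subunit, *SdhC*, and its paralog *SdhCL* changed by −0.64 (11.35 to 11.76 against 11.91 to 12.42) and −0.71 (10.07 to 10.75 against 10.82 to 11.22). *Sdhaf3*, which helps to mature the iron-sulfur subunit, changed least in the complex, by −0.44 ± 0.045 (8.34 to 8.62 at 25 °C, against 8.74 to 9.06 at 15 °C).

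Complex III, the cytochrome bc1 complex, had a median change of −0.40 over 6 genes, all small accessory subunits or their paralogs. *UQCR-14* measured 12.67 to 12.95 at 25 °C (median 12.83), against 13.30 to 13.46 at 15 °C (median 13.39), without overlap. Its change of −0.57 ± 0.034 (adjusted p = 2.28e-11) lay close to that of the paralog *UQCR-14L*, −0.64 ± 0.051, which measured 9.45 to 10.05 against 10.06 to 10.52. *UQCR-6.4* changed by −0.42 without overlap. The smallest changes were those of *UQCR-11L* (−0.31 ± 0.049) and *UQCR-Q* (−0.36 ± 0.031). *UQCR-11L* ranged from 9.93 to 10.58 at 25 °C and from 10.48 to 10.85 at 15 °C, so its arrays overlapped, while those of *UQCR-Q*, at 11.54 to 11.75 and 11.93 to 12.08, did not. *UQCR-11* had the widest interval of the complex (−0.39, 95% interval −0.53 to −0.24), at a level of 5.23 to 6.07 at 25 °C and 5.67 to 6.29 at 15 °C.

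Complex IV, cytochrome c oxidase, held both ends of the range, in 3 genes of the subunit VIIa family. *COX7AL2* measured 12.004, 12.29 and 12.18 in 25 °C fluctuating flies at 35 °C, 12.02, 12.09 and 12.09 in 25 °C fluctuating flies at 20 °C, 12.19, 12.08 and 12.37 in 25 °C constant flies at 35 °C, and 12.05, 12.14 and 12.02 in 25 °C constant flies at 20 °C. At 15 °C it measured 13.18 and 13.05 in fluctuating flies at 35 °C, 13.02, 13.18 and 13.14 in fluctuating flies at 20 °C, 13.28, 13.25 and 13.22 in constant flies at 35 °C, and 13.17, 13.29 and 13.23 in constant flies at 20 °C. All 12 arrays at 25 °C lay below all 11 arrays at 15 °C. The change of −1.05 ± 0.042, or 0.483 of the level at 15 °C (adjusted p = 1.18e-13), was the lowest of the 41 genes. The probe set of *COX7AL2* is of a type that can bind transcripts of more than 1 gene. So are those used for *ATPsynC*, *ATPsynD*, *ATPsynE* and *ATPsynF*.

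*COX7A* went the other way. Its values at 25 °C were 12.21, 12.27 and 12.38 (fluctuating, 35 °C), 12.41, 12.39 and 12.43 (fluctuating, 20 °C), 12.33, 12.41 and 12.45 (constant, 35 °C) and 12.43, 12.49 and 12.47 (constant, 20 °C). At 15 °C they were 11.97 and 11.88 (fluctuating, 35 °C), 12.05, 12.11 and 12.03 (fluctuating, 20 °C), 12.11, 12.05 and 11.98 (constant, 35 °C) and 12.23, 12.13 and 12.13 (constant, 20 °C). Apart from 1 array at 25 °C (12.21), every array at 25 °C lay above every array at 15 °C, and the 15 °C array above it (12.23) was the one with egg shell and yolk genes. The change was 0.34 ± 0.033, or 1.26 times the level at 15 °C (adjusted p = 1.59e-08), and it was 0.30 to 0.36 in the 4 contrasts. The paralog *COX7AL* fell by 0.44 ± 0.055, with 10.87 to 11.52 at 25 °C against 11.47 to 11.89 at 15 °C.

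**Figure D2:**
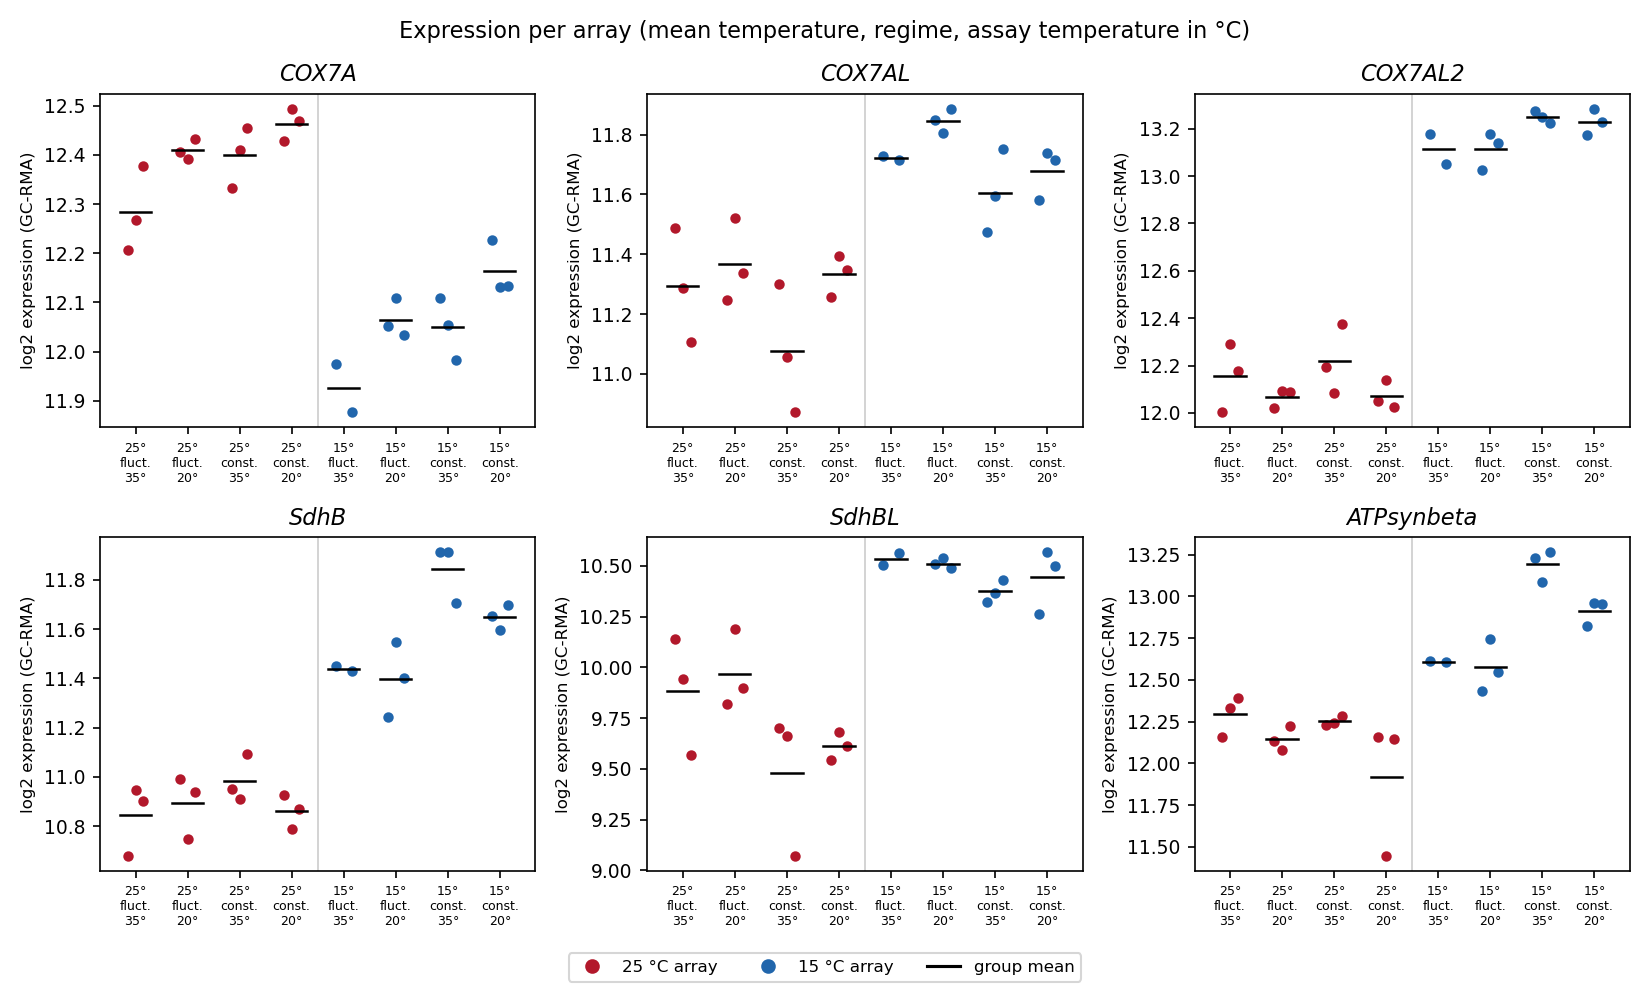
Log2 expression of 6 genes on each of the 23 arrays (points) in the 8 groups, with group means (lines); red marks 25 °C and blue 15 °C, and the axes differ between panels. *COX7A* is higher on the 25 °C arrays and *COX7AL2* lower without overlap, *SdhB* and *ATPsynbeta* are lower in fluctuating than in constant flies at 15 °C, and 1 array of *ATPsynbeta* at 25 °C stands at 11.45.

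The other 12 genes of complex IV changed by −0.54 to −0.23. *COX6AL* was lower without overlap (9.57 to 9.9994 at 25 °C, against 10.11 to 10.51 at 15 °C; change −0.54 ± 0.049). *COX4*, a subunit at the surface of the catalytic core, changed least among those that were lower (12.49 to 12.80 against 12.81 to 12.99; −0.23 ± 0.035), yet its arrays did not overlap either. *COX5A* and *COX5B*, both on the matrix side of the complex, changed by −0.47 and −0.48. *COX7C*, *COX8* and *COX7B*, small subunits that cross the membrane, changed by −0.45, −0.36 and −0.34 without overlap. The paralogs *COX6AL2* (−0.47), *COX5BL* (−0.46), *COX4L* (−0.39) and *COX6CL* (−0.27) were also lower but overlapped between the temperatures. *COX5BL* measured 9.75 to 10.50 at 25 °C against 10.38 to 10.74 at 15 °C, while its partner *COX5B* measured 12.26 to 12.48 against 12.55 to 13.01. The genes *COX5B* and *COX5BL* have 1 protein-coding gene between them on the chromosome, and *COX7A* and *COX7AL* 2, by the RefSeq annotation of Release 6. The neighbours *COX7A* and *COX7AL* changed in opposite directions, while *COX5B* and *COX5BL* changed alike.

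Complex V had a median change of −0.52 over 14 genes, all lower. *ATPsynbeta*, the catalytic subunit of the F1 head, measured 11.45 to 12.39 at 25 °C (median 12.19), against 12.43 to 13.26 at 15 °C (median 12.83). The arrays did not overlap, and its change of −0.67 ± 0.068 (adjusted p = 2.84e-08) was the lowest of the complex. A second probe set of the gene gave a smaller change, −0.25 ± 0.039. *ATPsynC*, whose protein forms the rotating ring in the membrane, was measured more tightly, at 12.62 to 12.86 against 13.16 to 13.55 (−0.66 ± 0.039; adjusted p = 1.31e-11).

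The subunits of the central stalk, *ATPsyngamma* (−0.40) and *ATPsyndelta* (−0.51), and those of the peripheral stalk, *ATPsynB* (−0.50), *ATPsynD* (−0.53), *ATPsynO* (−0.49) and *ATPsynCF6* (−0.37), lay in a narrow band. The membrane-sector subunits *ATPsynE* (−0.33 ± 0.030) and *ATPsynF* (−0.45 ± 0.032) were similar. A second probe set of *ATPsyngamma* gave −0.54. The paralogs *ATPsynepsilonL* (−0.66), *ATPsynCF6L* (−0.65), *ATPsynbetaL* (−0.59) and *ATPsynGL* (−0.57) were also lower. Of the 14 genes, *ATPsynCF6* and *ATPsynCF6L* overlapped between the temperatures, by 1 or a few arrays at the edges (12.08 to 12.37 against 12.35 to 12.70, and 10.10 to 10.70 against 10.70 to 11.25), and the other 12 did not.

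Other genes of the pathway were taken from lists. Of 7 further subunits of complexes III to V with other names, 7 were lower at 25 °C, from the Rieske protein gene *RFeSP* (−0.45 ± 0.048) to *cype* (−0.10 ± 0.037), a subunit VIc gene of complex IV. In complex I, 32 of 32 genes were lower, with a median of −0.40. Among 6 carriers of nucleotides, phosphate and other small molecules, 5 were lower, including the adenine nucleotide translocase *Ant2* (−0.57 ± 0.052), and of the phosphate carriers *Mpcp1* was lower by a wide margin (−1.29 ± 0.053) and *Mpcp2* higher (0.20 ± 0.033).

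The assembly factors did not share one direction. Of 10 for complexes III to V, 5 were lower and 2 higher, among them *Cox10*, needed to make heme a, at −0.53 ± 0.038, and *Coa7* at 0.21 ± 0.039. Among 8 genes of mitochondrial transcription and biogenesis, 4 were lower and 1 higher: the DNA-packaging factor *TFAM* (−0.35 ± 0.035) and *Ets97D* (−0.39 ± 0.037), the counterpart of a mammalian regulator of respiratory genes, were among the lower, and the nuclear receptor gene *ERR* was higher (0.42 ± 0.050). Of 4 uncoupling protein genes, *Ucp4A* was lowest (−0.80 ± 0.064) and *Bmcp* was higher (0.63 ± 0.044). These lists were small, and 27.1% of all probe sets were lower.

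Markers of muscle and testis moved with mean temperature too. Both lists were chosen with earlier results of these data known, and 27.1% of all probe sets were lower at 25 °C. Of 18 flight muscle genes, 18 were lower at 25 °C, with a median of −0.55 and the lowest changes at *fln*, flightin (−3.39 ± 0.16), and *TpnC4*, a troponin C of flight muscle (−3.27 ± 0.13). Per array, the median of the muscle list lay between −0.38 and −0.20 around its mean at 25 °C, against 0.20 to 0.40 at 15 °C, beside −0.32 to −0.13 and 0.08 to 0.36 for the 24 subunits. Of 33 testis genes, 32 were lower, with a median of −0.49, and per array their median lay between −0.56 and 0.05 at 25 °C, against 0.07 to 0.29 at 15 °C, beside −0.56 to 0.05 and 0.07 to 0.38 for the 16 paralogs. No defining marker of muscle or testis was near the floor. *betaTub85D*, the tubulin of the testis, stayed between 11.98 and 12.9, and *fln* between 6.57 and 11.7. The part of these tissues in the change of the respiratory genes was not tested.

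**Figure D3:**
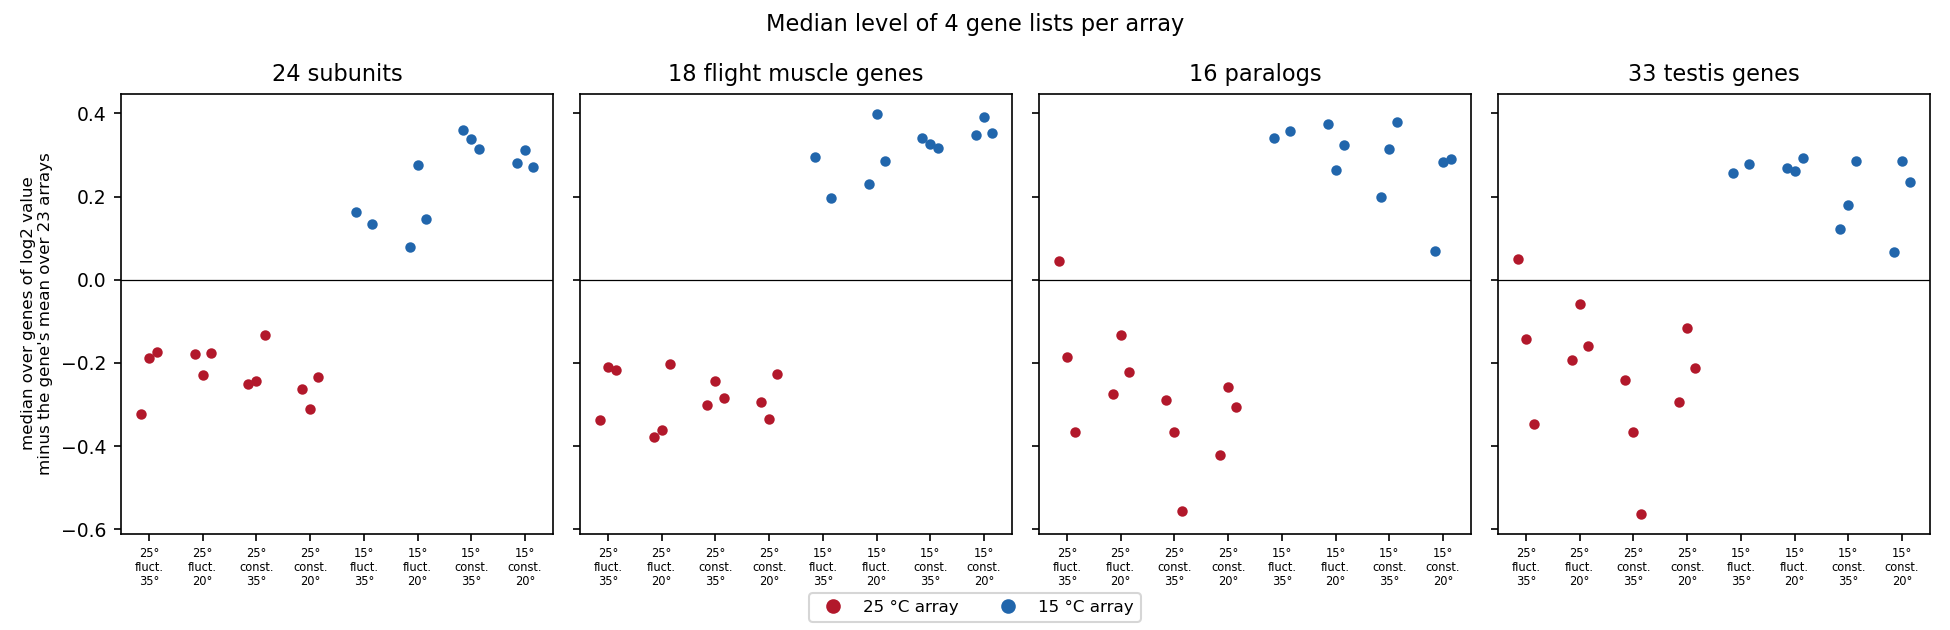
Median over the genes of 4 lists of the log2 value minus the gene's mean, for each of the 23 arrays in the 8 groups; red marks 25 °C and blue 15 °C. Subunits and flight muscle genes lie below 0 on every 25 °C array and above 0 on every 15 °C array, and the paralogs and the testis genes have 1 array above 0 at 25 °C (0.05 for each list).

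With regime, fluctuating against constant, the genes that were higher were paralogs and those that were lower were subunits. In the average of the 4 contrasts 12 of 41 genes passed the test, and 15.2% of all probe sets did. Higher in fluctuating flies were 8 genes, each of them a paralog: *SdhBL* (0.25), *SdhAL* (0.22), *COX6CL* (0.21), *COX5BL* (0.20), *UQCR-14L* (0.19), *SdhCL* (0.19), *UQCR-11L* (0.16) and *COX4L* (0.14), against 8.82% of all probe sets. Lower were 4, each a subunit: *SdhB* (−0.19), *ATPsyndelta* (−0.18), *ATPsyngamma* (−0.13) and *ATPsynD* (−0.13), against 6.41% of all probe sets. The median change was 0.15 over the 16 paralogs and −0.06 over the 24 subunits, against 0.00 over all probe sets.

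In levels the changes with regime were slight. *SdhBL* measured 10.14, 9.94 and 9.57 (35 °C) and 9.82, 10.19 and 9.90 (20 °C) in 25 °C fluctuating flies, against 9.70, 9.66 and 9.07 (35 °C) and 9.54, 9.68 and 9.61 (20 °C) in 25 °C constant flies. All but 1 of the fluctuating arrays were above all the constant arrays there. At 15 °C it measured 10.50 and 10.56 (35 °C) and 10.51, 10.54 and 10.49 (20 °C) in fluctuating flies, against 10.32, 10.37 and 10.43 (35 °C) and 10.26, 10.57 and 10.50 (20 °C) in constant flies, and the arrays overlapped. The change of the average was 0.25 ± 0.075 (adjusted p = 0.0314). *SdhAL* overlapped at both temperatures, at 8.29 to 8.82 in fluctuating flies against 7.87 to 8.37 in constant flies at 25 °C, and 9.08 to 9.39 against 8.90 to 9.27 at 15 °C.

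The arrays of *SdhB* were apart between the regimes at 15 °C. It measured 11.45 and 11.43 (35 °C) and 11.24, 11.55 and 11.40 (20 °C) in 15 °C fluctuating flies, against 11.91, 11.91 and 11.71 (35 °C) and 11.65, 11.60 and 11.70 (20 °C) in 15 °C constant flies, so that all 5 fluctuating arrays lay below all 6 constant arrays. At 25 °C the ranges were 10.68 to 10.99 in fluctuating and 10.79 to 11.09 in constant flies, and they overlapped. The average change was −0.19 ± 0.048 (adjusted p = 0.0115). Of the single contrasts at 15 °C, *SdhB* passed at 35 °C and not at 20 °C. The difference between 25 °C and 15 °C in the change of *SdhB* with fluctuation did not pass as an interaction in limma.

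The count of 12 rested on single arrays. It was 5 without 15 °C fluctuating, 35 °C, replicate 2. It was 6 without replicate 1 of 15 °C constant, 20 °C (the array with egg shell and yolk genes), of 15 °C constant, 35 °C, of 25 °C constant, 20 °C, or of 25 °C fluctuating, 35 °C, and without replicate 2 of 25 °C fluctuating, 20 °C. It was 7 without replicate 2 of 15 °C constant, 35 °C, or replicate 3 of 25 °C constant, 35 °C. *COX5BL*, *COX6CL* and *UQCR-14L* (higher) and *SdhB* and *ATPsyndelta* (lower) passed in all 23 fits with 1 array left out. Without the array with egg shell and yolk genes, *SdhBL* (adjusted p = 0.0528 in limma), *SdhCL* (0.0595), *UQCR-11L* (0.0531) and *COX4L* (0.0707) missed the threshold. So did *ATPsynD* (0.0569) and *ATPsyngamma* (0.0603).

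Set beside its partner, each paralog had the higher change. In 9 pairs of a subunit gene and a paralog with the same name plus L, the change with regime was higher in the paralog in 9 pairs, and in 7 the signs were opposite. The widest gap was that of *SdhBL* and *SdhB* (0.25 and −0.19), followed by *SdhCL* and *SdhC* (0.19 and −0.11). *COX5BL* and *COX5B* (0.20 and −0.06), *COX7AL* and *COX7A* (0.13 and −0.10), *UQCR-14L* and *UQCR-14* (0.19 and −0.04), *ATPsynCF6L* and *ATPsynCF6* (0.15 and −0.07) and *COX4L* and *COX4* (0.14 and −0.06) were likewise of opposite sign. The exceptions in sign were *ATPsynbetaL* and *ATPsynbeta* (−0.02 and −0.16) and *UQCR-11L* and *UQCR-11* (0.16 and 0.03). With mean temperature the paralog had the higher change in 3 of 9 pairs, and with ramping in 2 of 9. The difference within a pair was not tested. All pairs were read on the same arrays and are not replicates, so these counts of pairs are not separate results. A second probe set of *COX7C*, at a lower level, was higher in fluctuating flies (0.16, adjusted p = 0.0150), against −0.05 for the probe set used, so that the direction of this subunit depends on the probe set. Second probe sets of *ATPsynbeta* (−0.12, adjusted p = 0.0429 in limma) and *ATPsyngamma* (−0.14, adjusted p = 0.0297) were lower in fluctuating flies. The probe set used for *ATPsynbeta* did not pass (−0.16, adjusted p = 0.115).

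**Figure D4:**
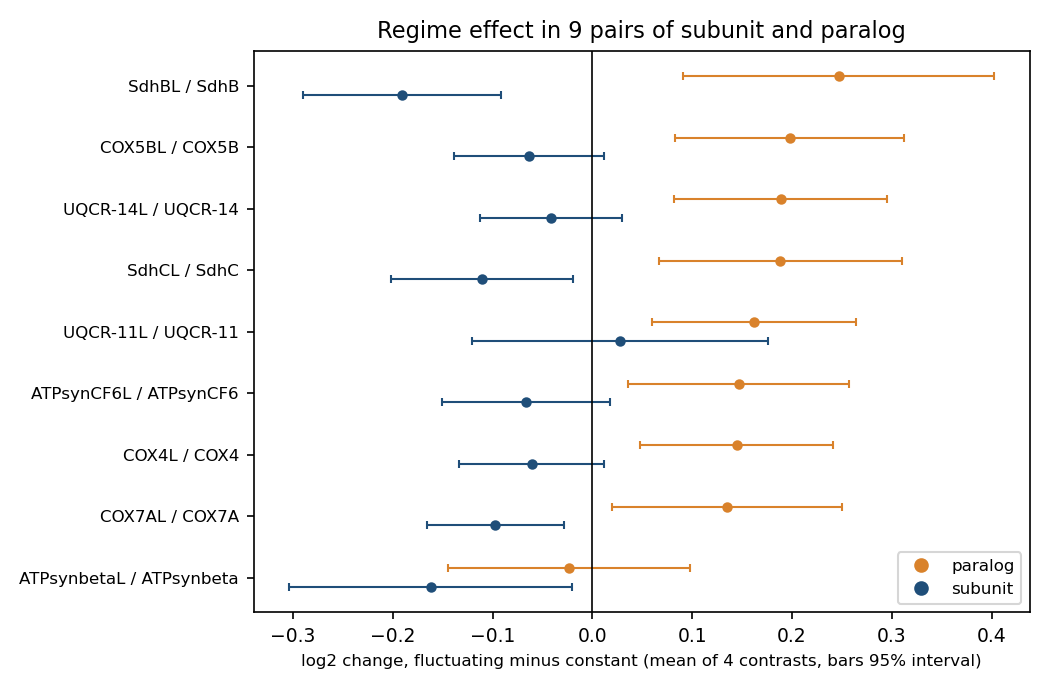
Average log2 change, fluctuating minus constant, of 9 paralogs and of the subunit genes they are named after; points are limma estimates and bars 95% intervals. In every pair the paralog lies right of the subunit, with *SdhBL* at 0.25 and *SdhB* at −0.19 the farthest apart.

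Testis genes were among those higher in fluctuating flies. Of the 33 testis genes 10 were higher in fluctuating flies and 0 lower, with a median of 0.12 (unadjusted p under 0.05 in limma: 17), and of the 17 accessory gland genes 11 were lower and 0 higher, with a median of −0.13 (unadjusted: 13). Over all probe sets 8.82% were higher and 6.41% lower. On the array with egg shell and yolk genes the testis median stood at 0.07, against 0.28 and 0.23 on replicates 2 and 3 of its group. Per array, the testis list and the paralogs ran side by side, between −0.35 and 0.05 and between −0.37 and 0.05 in 25 °C fluctuating flies at 35 °C, against −0.56 to −0.24 and −0.56 to −0.29 in 25 °C constant flies at 35 °C. Flight muscle genes had a median of −0.04, with 0 higher and 1 lower. The part of testis RNA in the change of the paralogs was not tested. *COX7AL2*, the paralog with the lowest change of the 16 (−0.08 ± 0.042), did not pass.

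In single contrasts of regime few genes passed. At 15 °C and 35 °C the test was passed by 3 of 41 genes, all lower in fluctuating flies, against 0.464% of all probe sets lower and 2.22% in either direction: *ATPsynbeta* (−0.58, adjusted p = 0.0428), *ATPsyndelta* (−0.44, adjusted p = 0.0161) and *SdhB* (−0.40, adjusted p = 0.0444). None of the 3 passed without replicate 1 or 2 of 15 °C constant, 35 °C, or without replicate 2 of 15 °C fluctuating, 35 °C. The other contrasts had 0 of 41 by limma: 25 °C and 35 °C (10 genes at an unadjusted p under 0.05, and 1.05% of all probe sets called), 25 °C and 20 °C (2 genes, 0.938%) and 15 °C and 20 °C (9 genes, 2.16%). Without replicate 3 of 25 °C fluctuating, 35 °C, the first of these had 9 genes, without replicate 1 of 25 °C constant, 35 °C, 3, and the last had 2 without replicate 2 of 15 °C fluctuating, 20 °C.

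The medians of the subunits lay below 0 at 15 °C and near 0 at 25 °C. Their median change with fluctuation was −0.17 (35 °C) and −0.12 (20 °C) at 15 °C, and −0.01 (35 °C) and 0.07 (20 °C) at 25 °C. For the paralogs it was 0.24 and 0.13 at 25 °C and 0.11 and 0.11 at 15 °C. Complex I moved like the subunits, with medians over 32 genes of −0.12 (35 °C) and −0.14 (20 °C) at 15 °C, and −0.03 (35 °C) and 0.07 (20 °C) at 25 °C, though 1 gene passed in each contrast at 15 °C. For the flight muscle genes the medians at 15 °C were −0.06 (35 °C) and −0.03 (20 °C). Per array, at 15 °C and 35 °C, the median of the muscle list lay at 0.20 to 0.29 in fluctuating flies, against 0.32 to 0.34 in constant flies, that of complex I at 0.13 to 0.18 against 0.26 to 0.34, and that of the subunits at 0.13 to 0.16 against 0.31 to 0.36, without overlap in any of the 3 lists. With 2 fluctuating arrays against 3 constant ones at 15 °C and 35 °C, a lack of overlap says little. On replicate 2 of the fluctuating arrays the median deviation of all probe sets stood at 0.10, against −0.01 on replicate 1. At 15 °C and 20 °C the muscle list and the subunits overlapped between the regimes, and complex I did not. The part of muscle in the change of the subunits was not tested. At 15 °C 9 genes had all fluctuating arrays below all constant arrays, against 1.48% of all probe sets: *ATPsynbeta*, *ATPsynD*, *ATPsyndelta*, *ATPsyngamma*, *ATPsynO*, *COX5A*, *SdhB*, *SdhC* and *SdhD*, all of them subunits. The paralog *COX4L* was the reverse by a narrow margin, at 12.136 to 12.30 in fluctuating flies, against 11.89 to 12.135 in constant flies, and 2.67% of all probe sets had every fluctuating array above. At 25 °C the arrays of all 41 genes overlapped, and 0.767% and 0.986% of all probe sets were apart upward and downward.

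The difference itself, the change with fluctuation at 25 °C minus that at 15 °C, was tested as an interaction in limma. It passed for 5 of 41 genes, all positive, against 2.91% of all probe sets (1.09% positive and 1.82% negative). It was above 0 in 24 of 24 subunits and 12 of 16 paralogs. Genes read on the same arrays are not replicates, so these signs are not separate results. *ATPsynbeta* had 0.60 ± 0.14 (adjusted p = 0.0259) on the probe set used, but with the mean of its probe sets it had 0.31 and did not pass (adjusted p = 0.0612). Its arrays read 12.16, 12.33 and 12.39 (35 °C) and 12.14, 12.08 and 12.23 (20 °C) in 25 °C fluctuating flies, against 12.23, 12.24 and 12.28 (35 °C) and 12.16, 11.45 and 12.15 (20 °C) in 25 °C constant flies. In 15 °C fluctuating flies they read 12.61 and 12.61 (35 °C) and 12.43, 12.75 and 12.55 (20 °C), against 13.23, 13.09 and 13.26 (35 °C) and 12.83, 12.96 and 12.95 (20 °C) in 15 °C constant flies. Every fluctuating array was below every constant array at 15 °C, while at 25 °C the regimes overlapped and 1 constant array (11.45) lay far below the rest.

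*ATPsyndelta* (0.36 ± 0.084, adjusted p = 0.0274), *ATPsynC* (0.31 ± 0.077, adjusted p = 0.0379), *ATPsynD* (0.31 ± 0.084, adjusted p = 0.0485) and *SdhD* (0.25 ± 0.064, adjusted p = 0.0385) were the other 4. *ATPsyndelta* ran from 12.06 to 12.44 in 15 °C fluctuating flies, against 12.48 to 12.64 in 15 °C constant flies, and from 11.80 to 11.98 against 11.80 to 12.01 at 25 °C. *SdhD* ran from 11.81 to 12.02 against 12.07 to 12.22 at 15 °C, and from 11.27 to 11.38 against 11.24 to 11.31 at 25 °C. In complex V the median interaction was 0.25, in complex II 0.25, in complex III 0.11 and in complex IV 0.08, where 0 of 14 genes passed (1 at an unadjusted p under 0.05). The change with ramping at 25 °C minus that at 15 °C passed for 0 of 41 genes in limma (2 at an unadjusted p under 0.05, and 1.1% of all probe sets called), and the change with fluctuation at 35 °C minus that at 20 °C for 0 (0 at an unadjusted p under 0.05, and 0% of all probe sets).

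Seen the other way, the same arrays give a smaller drop with mean temperature in fluctuating flies. The median change of the 41 genes with mean temperature was −0.43 (35 °C) and −0.38 (20 °C) in fluctuating flies, against −0.58 and −0.54 in constant flies. For *ATPsynbeta* it was −0.32 and −0.43 in fluctuating flies, against −0.94 and −0.996 in constant flies.

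The interaction calls were not stable. Without 15 °C fluctuating, 35 °C, replicate 2, 0 of 41 genes passed, and *ATPsynbeta* had 0.59 with an adjusted p of 0.0504. The count was 0 to 3 without any 1 of 17 of the 23 arrays, and 4 to 7 without any 1 of the other 6 (replicate 1 of 15 °C constant, 20 °C, replicate 3 of 15 °C constant, 35 °C, replicate 2 of 15 °C fluctuating, 20 °C, replicate 1 of 15 °C fluctuating, 35 °C, and replicate 3 of 25 °C constant, 35 °C, and of 25 °C fluctuating, 35 °C). All 5 genes kept a positive value in these fits. *ATPsynbeta* passed in 22 of the 23, all on the 1 probe set used. *ATPsynD* missed the threshold without the array with egg shell and yolk genes (adjusted p = 0.0558 in limma).

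Heat ramping was followed by small changes in these genes. In the 4 contrasts of 35 °C with 20 °C, 0 of 41 genes passed in limma, against 16.6% (25 °C fluctuating), 18.5% (25 °C constant), 13.5% (15 °C fluctuating) and 14.5% (15 °C constant) of all probe sets. At an unadjusted p under 0.05 there were 2, 9, 1 and 3 genes in the same order. In the average of the 4, 3 of 41 genes passed, 2 higher and 1 lower, against 33.3% of all probe sets (16.2% higher and 17% lower). Over the 8 groups the ramped and unramped arrays of all 41 genes overlapped, while 2.46% of all probe sets had every ramped array above and 1.8% every ramped array below. Both sides of that comparison pool 25 °C and 15 °C arrays, and these genes differ with mean temperature. A small change with ramping could not separate such arrays, so the overlap says little about it. For 39 of the 41 genes the 95% interval of the average change with ramping lay within ±0.25 on the log2 scale, and for all 41 within ±0.5.

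*COX5B* was higher in ramped flies by 0.12 ± 0.036 (adjusted p = 0.0138), at 12.31 to 13.01 with a median of 12.48 in ramped flies, against 12.26 to 12.91 with a median of 12.44 at 20 °C. *ATPsynbeta* was higher by 0.20 ± 0.068 (adjusted p = 0.0276), at 12.16 to 13.26 against 11.45 to 12.96, and its second probe set by 0.29 ± 0.039. *COX7A* was lower by −0.11 ± 0.033 (adjusted p = 0.0116), at 11.88 to 12.45 against 12.03 to 12.49. The second probe set of *ATPsynbeta* passed as well (adjusted p = 3.26e-06). *COX7A* missed the threshold with arrays centred on their medians (adjusted p = 0.0633), and *ATPsynbeta* with quantile normalization (adjusted p = 0.0521), without replicate 1 of 15 °C fluctuating, 20 °C (0.0521) or without replicate 2 of 15 °C fluctuating, 35 °C (0.0504).

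Of the genes that did not pass, *UQCR-11* (0.18 ± 0.071, adjusted p = 0.0561) and *COX7AL* (−0.13 ± 0.055, adjusted p = 0.0753) had the largest values in each direction. *UQCR-11* measured 5.47 to 6.29 in ramped flies (median 5.97), against 5.23 to 6.21 at 20 °C (median 5.73), and *COX7AL* 10.87 to 11.75 (median 11.47) against 11.25 to 11.89 (median 11.55). In 25 °C constant flies the 16 paralogs had a median of −0.13 with ramping, and 14 of them were below 0, beside a median of −0.14 over the testis genes. The paralogs had medians of 0.01 in 25 °C fluctuating, 0.00 in 15 °C fluctuating and 0.05 in 15 °C constant flies. In 25 °C constant flies 1 gene passed without replicate 1 or 3 at 20 °C, or without replicate 1 or 2 at 35 °C. The count of 3 in the average rose to 5 without replicate 2 of 15 °C constant, 20 °C, replicate 1 of 15 °C constant, 35 °C, or replicate 3 of 25 °C constant, 35 °C, or of 25 °C fluctuating, 35 °C, and to 6 without replicate 1 of 25 °C fluctuating, 35 °C. No gene of complex II or III passed in the average (0 of 7 and 0 of 6, with 0 and 2 at an unadjusted p under 0.05).

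**Figure D5:**
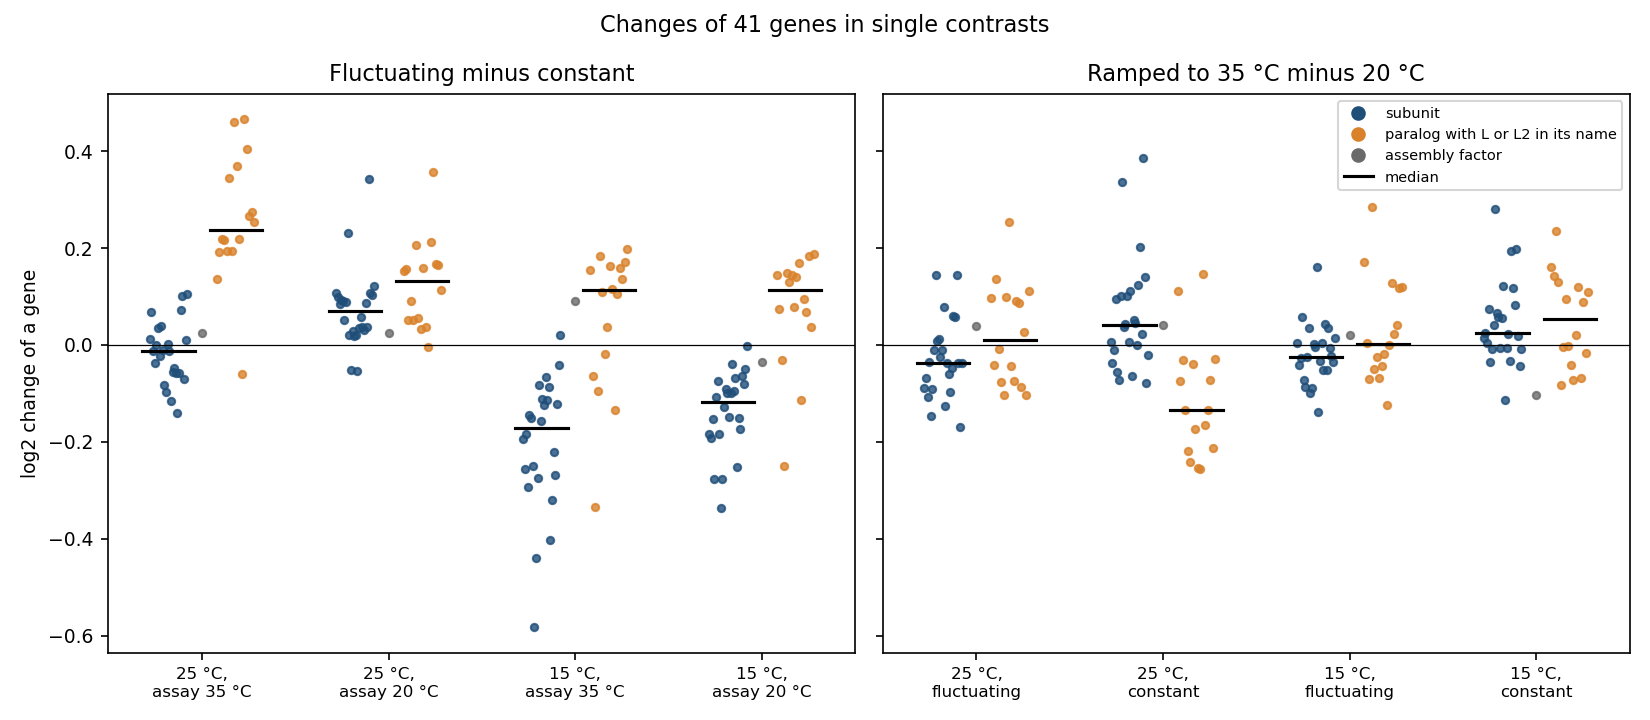
Log2 change of each of the 41 genes in the 4 contrasts of regime (left) and of ramping (right); points are genes, colours mark subunits, paralogs and the assembly factor, and lines are medians. With regime the medians of the subunits lie below 0 at 15 °C (−0.17 and −0.12) and the paralog medians above 0 in all 4 contrasts, and with ramping the medians lie between −0.13 and 0.05.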

How the data were processed

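Total RNA of 24 pools of 20 male flies was hybridised by the authors to Affymetrix Drosophila Genome 2.0 arrays. The deposited values are log2 expression levels made by the authors with GC-RMA (gcrma 2.40.0 in R, per the study's methods), which corrects background, normalizes between arrays and summarises each probe set. Such values compress small differences near background. Groups and replicates were taken from the labels, and 0 columns stayed unmapped. Of the 18769 probe sets tested (183 control probe sets left out), 13647 carry 1 gene symbol, 402 several and 4720 none. All 41 symbols matched the RefSeq table.

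Group means of 23 arrays were fitted without covariates in limma 3.58.1 (R 4.3.3), with p-values adjusted by Benjamini-Hochberg over all probe sets of a contrast and 0.05 as threshold, and no filter on low values. Errors are SE. With 2 arrays left, the 15 °C fluctuating, 35 °C group relies on the variance pooled over the 8 groups. On simulated data the fit was tested with known changes. Figures were drawn with matplotlib 3.10.9 in Python 3.11.15. The number of arrays limits the precision, and as pools of a regime came from 1 cabinet, p-values measure only the spread between pools.

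Members and lists were chosen with earlier results of these data known. Every member could be named. Values on every array were to be given for the 2 lowest and 2 highest genes of each complex by mean temperature, the 2 highest and 2 lowest by ramping and by regime, genes called against their complex, and the 9 pairs; here they stand as ranges where groups exceed 5 arrays. Of each other list at most the 2 lowest and 2 highest genes called were to be named. List names were matched as written to probe sets with 1 gene symbol, leaving out the members. Matches were 7 of 15 names for other subunits, 10 of 24 for assembly factors, 6 of 7 for carriers and 4 of 4 for uncoupling proteins. They were 8 of 13 for transcription and biogenesis, 18 of 22 for flight muscle, 33 of 38 for testis and 15 of 20 for egg shell and yolk. For the accessory gland they were 17 of 30, and for cytochrome c 0 of 2. Some names were synonyms, and *CG30354* is the member *UQCR-11L*. A name without a match thus does not mean that the array lacks the gene. A search for promoter motifs was not run.

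Alternatives were all 24 arrays, 22 arrays (also without replicate 1 of 15 °C constant, 20 °C), the replicate number as a block, a mean of at least 4, centring on the median, quantile normalization, a trended robust variance, array weights, the mean of all probe sets of a gene, only the arrays of a contrast, and leaving out each array in turn.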

Additional observations from a re-analysis of the deposited data

Results flagged for a closer look

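The change with fluctuation differed between 25 °C and 15 °C in 5 genes, by the interaction term in limma (25 °C minus 15 °C). The differences were 0.60 for *ATPsynbeta*, 0.36 for *ATPsyndelta*, 0.31 for *ATPsynC*, 0.31 for *ATPsynD* and 0.25 for *SdhD*. They lie in complex V, apart from *SdhD* of complex II. In each gene the value at 25 °C was near 0 or above (0.23 and 0.04 at 20 °C and 35 °C for *ATPsynbeta*), while at 15 °C it was below 0 (−0.34 and −0.58). The value of *ATPsynbeta* depends on its probe set: with the mean of all its probe sets it was 0.31 (adjusted p = 0.0612 in limma) and no longer passed, while the other 4 genes did. On the probe sets used, with 1 array left out at a time, *ATPsynbeta* passed in 22 of 23 fits, *ATPsyndelta* in 21, *ATPsynC* in 10, *SdhD* in 7 and *ATPsynD* in 2.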

How the results depend on the processing

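The calls with mean temperature kept their direction and their side of the threshold in the average under every alternative run on 22 or 23 arrays (41 of 41 genes, also without 1 array at a time). With all 24 arrays 1, 1, 0 and 0 genes were called in the contrasts constant 20 °C, constant 35 °C, fluctuating 20 °C and fluctuating 35 °C, and 1 in the average. Without 1 array at a time these 4 counts were 38 to 41, 39 to 41, 34 to 38 and 29 to 36, and with only the arrays of the contrast the last was 19. The array left out of the 23 also gave 0 calls in the averages of regime and ramping, in regime at 15 °C and 35 °C, and in the interaction. With it *ATPsynCF6* (0.022), *ATPsynE* (0.021), *COX4* (0.27), *COX4L* (0.19) and *UQCR-Q* (0.043) turned to higher at 25 °C, *COX4L* (−0.44), *COX5BL* (−0.12), *COX6CL* (−0.062), *SdhAL* (−0.15), *SdhCL* (−0.011), *UQCR-11L* (−0.085) and *UQCR-14L* (−0.073) to lower in fluctuating flies, and *ATPsynbeta* (−0.33) and *COX5B* (−0.34) to lower in ramped flies. On 22 arrays the average of regime had 6 calls and regime at 25 °C and 35 °C 2.

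The replicate numbers did not pair the arrays: over 77 pairs with the same number the correlation of deviations was −0.37 to 0.49, with 10 over 0.1. With the number as a block, regime at 15 °C and 35 °C had 1 call, the interaction 2, ramping in 25 °C constant flies 1, and the average of regime 8. With a mean of at least 4, regime at 25 °C and 35 °C had 2, ramping 1 in 25 °C constant, 1 in 25 °C fluctuating and 7 in the average. Arrays centred on the median gave 6 for regime at 15 °C and 35 °C and 2 for ramping in 25 °C constant flies. Quantile normalization gave 1 and 2 for ramping in 25 °C constant and fluctuating flies and 8 in the average. A trended robust variance gave 3 for regime at 25 °C and 35 °C, and for ramping 1 in 25 °C fluctuating flies and 6 in the average. Array weights gave 17 for regime at 25 °C and 35 °C, 3 and 0 at 15 °C (20 °C and 35 °C), 6 and 4 for ramping in 25 °C constant and fluctuating flies, 9 in its average and 8 for the interaction. The mean of all probe sets gave 1 for regime at 15 °C and 35 °C, 1 for ramping in 25 °C constant flies and 4 for the interaction, without *ATPsynbeta* (0.31, adjusted p = 0.0612). With only the arrays of the contrast, regime at 15 °C and 35 °C had 0. Without 1 array at a time the counts were 0 to 2 and 0 to 3 for regime at 15 °C (20 °C and 35 °C), 0 to 9 at 25 °C and 35 °C, 5 to 15 in its average, 0 to 1 for ramping in 25 °C constant flies, 2 to 6 in its average and 0 to 7 for the interaction. The causes were not tested. The number of arrays limits the precision.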
